A study of Mus musculus with 9 samples.

Results

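FLT3 is a receptor tyrosine kinase of early blood progenitors, and internal tandem duplications (ITD) in it make it signal without its ligand, through STAT5, RAS-ERK and PI3K-AKT. Such signalling drives growth and metabolism in acute myeloid leukaemia and holds back myeloid maturation. Neutrophils mature in steps that can be read from their granules: azurophil granule proteins are made first, by promyelocytes, then the proteins of specific granules, then those of gelatinase granules and the receptors of mature cells.

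The comparison described here is between mouse leukaemia cells kept in doxycycline (ON) and the same kind of cells 48 h after doxycycline was removed (OFF48). It took in 6 of the 9 libraries of the series, 3 from each group, and the other 3 were from cells at 24 h (OFF24). The cells came from fetal liver and carried a pair of retroviral vectors. MSCV-Luc2-IRES-MLL-AF9 expresses the fusion oncogene MLL-AF9 in every group, and TRE-tight-DsRED-IRES-FLT3-ITD expresses FLT3-ITD only while doxycycline is present. ON cells had 1 µg/mL doxycycline, and OFF48 cells were washed and grown without it, so that loss of the transgene and loss of the drug cannot be told apart. The series title names serine biosynthesis as a vulnerability of FLT3-ITD leukaemia. Whether the 3 libraries of each group were grown apart is not in the labels, so the p-values measure only the spread between these libraries, which may be technical.

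Libraries were made from the 3' ends of transcripts (QuantSeq), so that a count stands for a transcript end whatever the gene's length. Total counts ran from 2802157 to 4038456 in ON and from 1329296 to 3396364 in OFF48, where replicate 2 was the shallowest of the series. A count of 3 equals 0.743 to 1.07 CPM, counts scaled to the same library size in ON and 0.883 to 2.26 CPM in OFF48. Mitochondrial transcripts took 2.05 to 2.33% of ON counts and 1.56 to 1.79% of OFF48 counts, and the 10 most abundant genes took 6.92 to 7.12% and 9.88 to 10.1%. Of 24756 rows, 10215 passed the filter on low counts and were tested with edgeR's quasi-likelihood test. A gene is called where the p-value adjusted by the Benjamini-Hochberg method over all tested genes is under 0.05, and a fold change is on the log2 scale, OFF48 minus ON.

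The replicate 2 libraries of both groups stood apart from the others. In ON replicate 2, 36 tested genes had no count although both other ON libraries had one, and 28 of these had none in OFF48 replicate 2 either. Over all tested genes, OFF48 replicate 2 was the highest library of its group for 3833, the lowest for 3910 and in between or tied for 2472. On the second principal component, which held 19.3% of the variance, OFF48 replicate 2 was at 33.2 and the other OFF48 libraries were at 5.11 and 1.29. The first component, with 53.9%, separated ON libraries at -42.7 to -39.6 from OFF48 libraries at 36.5 to 40.9.

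Transcripts of myeloid cells were present in all 6 libraries. The summed level of 12 myeloid marker genes, led by Ly6c2, Cd33 and Fcgr3, was 2776 to 2972 CPM in ON and 6900 to 7727 CPM in OFF48. The summed levels of markers of lymphoid cells, erythroid cells and megakaryocytes were at most 2.86 CPM in any ON library and 9.0 CPM in any OFF48 library, with Cd79a, Alas2 and Ppbp at 0 counts. Mast cell and basophil markers, led by Mcpt8 and Gata2, summed to 16.4 to 18.6 CPM in ON and 8.23 to 16.6 CPM in OFF48, with 7 of 10 at 0, Cpa3 and Fcer1a among them. Hepatocyte markers, of interest in cells from fetal liver, summed to at most 7.38 CPM in any library, with Alb, Ttr and Apoa1 at 0. Markers of stroma and endothelium summed to 33.9 to 38.4 CPM in ON and 60.2 to 70.3 CPM in OFF48, with Cdh5 and Tek at 0. Most of these sums was Pecam1 alone, at 33.6, 25.5 and 23.9 CPM in ON and 52.5, 55.4 and 56.0 CPM in OFF48. The part of such cells in the results was not tested. The 3' counts of mouse Flt3 were 6, 5 and 3 in ON and 7, 2 and 6 in OFF48, too few to test. They do not check the transgene or its loss, since a vector transcript need not end where the mouse gene does. In bulk RNA, fewer cells of a type and less RNA per cell cannot be told apart.

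At 48 h, 2395 genes were higher (23.4% of those tested) and 2446 were lower (23.9%), 47.4% in all. Of these, 801 were at least 2-fold higher (7.84%) and 901 at least 2-fold lower (8.82%). Without both replicate 2 libraries, 2340 were higher and 2395 lower. The median log2 fold change of all tested genes was 0.01. The libraries of the groups did not overlap for 52.5% of tested genes. The shares of 23.4% higher and 23.9% lower are the background for each list count at 48 h below. A list member near 0 in ON was tested only if it was higher in another group, which favours rises among such members.

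**Figure D1:**
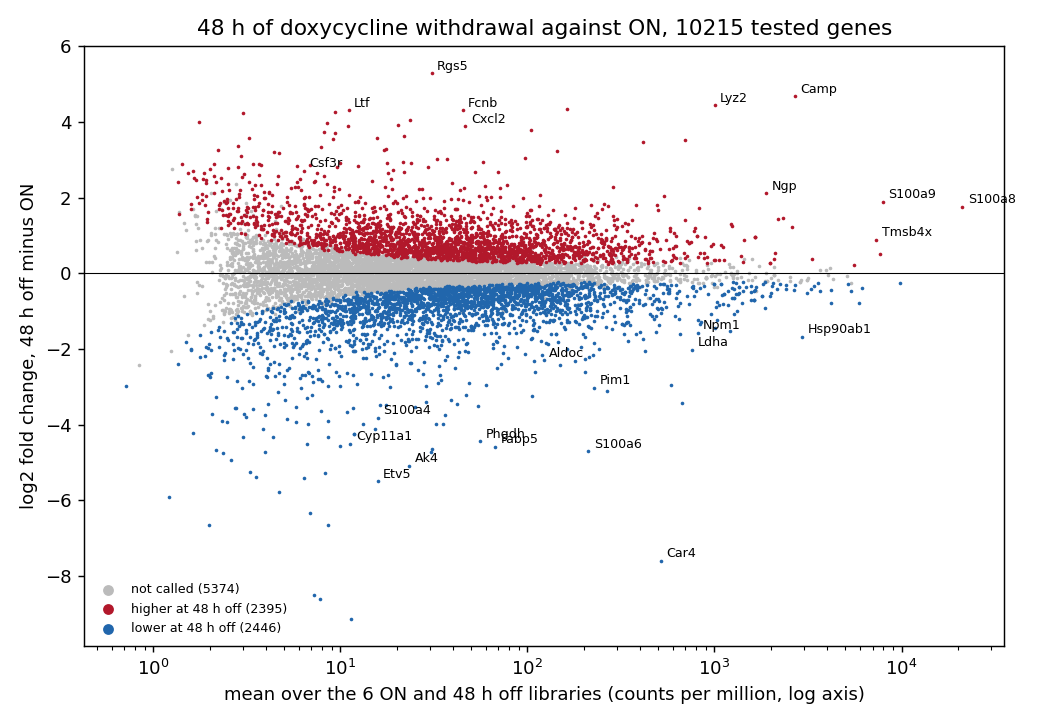
Each point is 1 of 10215 tested genes, with its mean over the 6 libraries in CPM on a log axis and its log2 fold change, OFF48 minus ON. Calls are spread over all levels of expression, and S100a8 and S100a9 lie at the far right. Fitted values below -8 include Etv4, which had 0 counts in OFF48 and so has no fitted size that can be read.

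The 10 largest rises and 10 largest falls were taken among called genes that averaged 10 CPM or more and whose ON and OFF48 libraries did not overlap, leaving out unnamed gene models. The rises were led by genes of neutrophil and monocyte granules and by a regulator of G protein signalling. Rgs5 (chr1:169655501-169695813 in mm10), which speeds the shut-off of G proteins, went from 1.53, 1.23 and 1.79 CPM in the ON libraries to 57.0, 66.0 and 57.4 CPM in the OFF48 libraries (log2 fold change 5.29, SE 0.23, adjusted p = 1.54e-12). Camp (chr9:109847379-109849617), the cathelicidin of specific granules, went from 184, 232 and 189 CPM to 5105, 5625 and 4772 CPM (4.68, SE 0.12, adjusted p = 6.41e-16). Lyz2 (chr10:117277331-117282321), a lysozyme, went from 85.2, 81.8 and 99.1 CPM to 1828, 1456 and 2461 CPM (4.44, SE 0.17, adjusted p = 1.56e-11). Each of these genes was lower in every ON library than in any OFF48 library. Lyz1, the near-identical neighbour of Lyz2, had a log2 fold change of 4.33, and how reads were split between them is uncertain. The other 6 of the 10 largest rises were Fcnb (4.30), a ficolin that binds microbial sugars, Ltf (4.30), the lactoferrin of specific granules, the Mas-related receptors Mrgpra2b (4.05) and Mrgpra2a (3.91), whose ends are near-identical to each other, the carboxylesterase Ces1d (3.90) and the neutrophil chemokine Cxcl2 (3.88).

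The falls included enzymes, transcription factors and carriers. Car4 (chr11:84957786-84966044), a membrane-bound carbonic anhydrase, went from 1127, 954 and 1003 CPM in ON to 6.04, 1.5 and 6.12 CPM in OFF48 (log2 fold change -7.61, SE 0.19, adjusted p = 5.82e-16). Etv5 (chr16:22381309-22439719), an ETS factor induced by ERK signalling, went from 35.5, 27.0 and 30.4 CPM to 1.01, 0.750 and 0.292 CPM (-5.50, SE 0.34, adjusted p = 2.91e-10). Its relative Etv4 (chr11:101769742-101785371) had 97, 96 and 57 counts in ON and 0 counts in every OFF48 library, at least 59-fold lower with a floor of 3 counts over the group. All 3 were well above their OFF48 values in every ON library. S100a6, a calcium-binding protein, went from 414, 451 and 361 CPM to 15.1, 12.8 and 17.5 CPM (-4.71, SE 0.14, adjusted p = 6.85e-15). Log2 fold changes were -4.58 for Fabp5, a fatty acid carrier, -4.51 for Cyp11a1, which starts steroid synthesis, and -4.72 for Gvin1, an interferon-inducible GTPase. Phgdh, the first enzyme of serine synthesis, had a log2 fold change of -4.44. The end of Phgdh is shared with 12 genes, so that its level is uncertain. Lilr4b, an inhibitory receptor, fell by 4.24, but its end is near-identical to that of Lilrb4a. Ak4, a mitochondrial adenylate kinase, is described with the hypoxia-response genes.

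In all, 13 genes had 0 counts in the 3 OFF48 libraries and at least 3 in each ON library, and no gene had the opposite pattern. The opposite pattern was harder to meet, since 3 counts equal 2.26 CPM in OFF48 replicate 2 and 0.743 to 1.07 CPM in ON. Besides Etv4, the heparan sulfate proteoglycan Sdc3 was at least 40.0-fold lower, the acyl-CoA synthetase Acsbg1 at least 10.6-fold lower, Unc13a at least 10.2-fold lower and Armcx4 at least 9.88-fold lower.

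**Figure D2:**
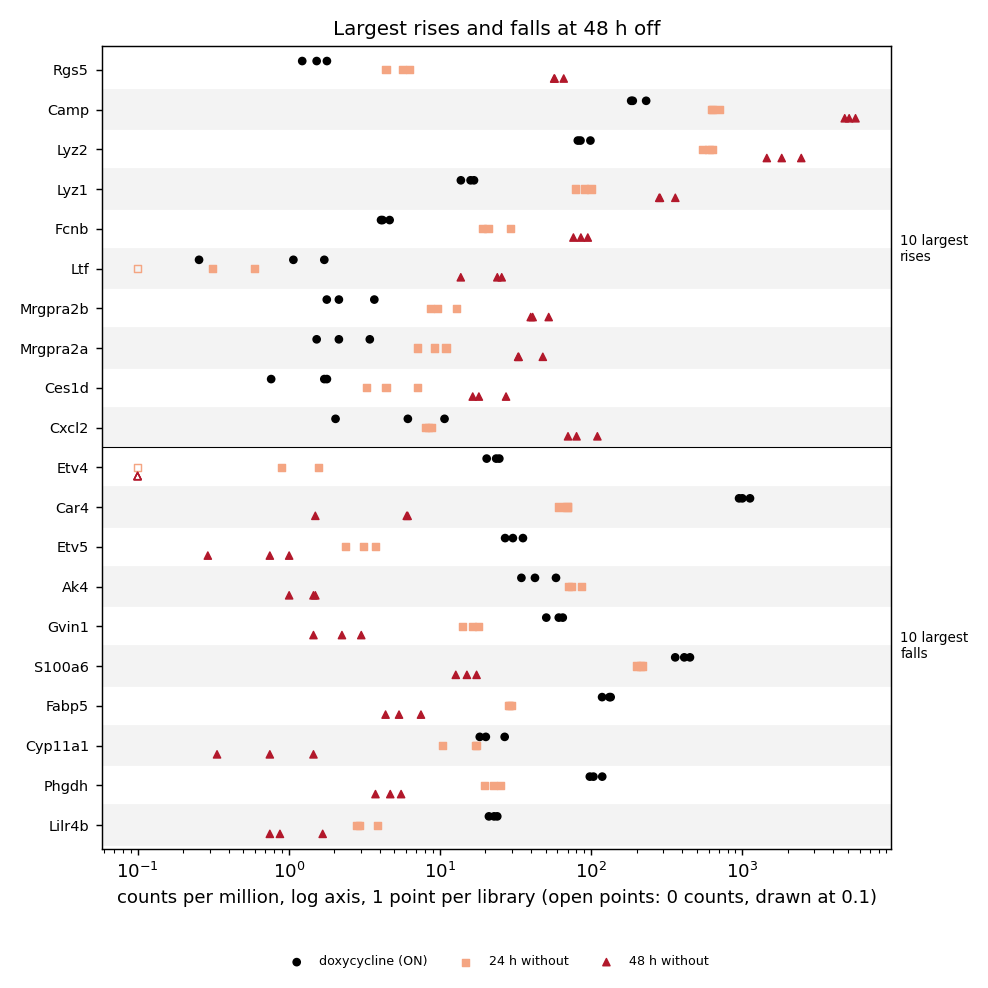
Values of the 10 largest rises and 10 largest falls in CPM on a log axis, with 1 point per library for ON, OFF24 and OFF48. No ON point overlaps an OFF48 point of the same gene, and most OFF24 points lie between them, with Ak4 above ON at 24 h and Ltf at or near 0.

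In absolute share of the libraries, the greatest gains went to the calprotectin subunits, which are the main cytosolic proteins of neutrophils. S100a8 (chr3:90668978-90670035) went from 10007, 10475 and 8532 CPM in ON to 31680, 35549 and 30534 CPM in OFF48 (log2 fold change 1.75, SE 0.10, adjusted p = 4.39e-11). S100a9 (chr3:90692632-90695721) went from 3544, 3501 and 3111 CPM to 11804, 13046 and 12870 CPM (1.89, SE 0.09, adjusted p = 7.98e-12). At 24 h neither was called against the same ON libraries, with log2 fold changes of 0.04 and -0.04 and adjusted p of 0.745 and 0.767. Camp, the thymosin Tmsb4x, the actin Actb and Ngp gained most after them. The Actb call (0.51) was lost in limma on the deposited log2 values (0.27, adjusted p = 0.0651). The 6 genes that lost the most CPM were the ribosomal proteins Rpl27a and Rplp1, the chaperones Hsp90ab1 and Hsp90aa1, the elongation factor Eef1a1 and the tubulin Tuba1b. The Eef1a1 call was lost without ON replicate 1 (log2 fold change -0.21, adjusted p = 0.11), without OFF48 replicate 2 (-0.19, adjusted p = 0.0936) and in a fit of the ON and OFF48 libraries only (-0.25, adjusted p = 0.053).

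Genes of neutrophil granules rose at 48 h in an uneven way. Of 12 tested azurophil granule genes, 8 were higher and 2 lower, with a median log2 fold change of 0.52. Mpo, the myeloperoxidase of azurophil granules, went from 57.9, 67.5 and 81.9 CPM in ON to 743, 864 and 671 CPM in OFF48 (3.46, SE 0.14, adjusted p = 1.48e-12). The serine proteases moved less or not measurably: Elane, neutrophil elastase, rose by 1.41 and Prtn3, proteinase 3, by 1.29. Ctsg, cathepsin G, was at 702, 772 and 696 CPM in ON and 652, 729 and 688 CPM in OFF48 (-0.07, SE 0.09, adjusted p = 0.561). The other genes that rose were Plac8 (1.21), the protease Prss57 (1.35), the proteoglycan core Srgn (0.55), the protease inhibitor Serpinb1a (0.49) and the GTPase Rab44 (0.45). Ctsc, the dipeptidyl peptidase that activates these serine proteases, fell from 61.7, 53.3 and 66.9 CPM to 17.1, 9.0 and 9.33 CPM (-2.30, SE 0.21, adjusted p = 5.59e-08). The cystatin Cst7 also fell (-0.79), and Ms4a3 was not called (-0.15, adjusted p = 0.392).

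Of 31 tested genes of specific and gelatinase granules and late neutrophils, 22 were higher and 4 lower, with a median of 1.67. Beside Camp, Ltf and Fcnb, the members that rose most included Chil3, a chitinase-like protein, at 105, 133 and 92.7 CPM in ON and 1033, 1358 and 1434 CPM in OFF48 (3.53, SE 0.14). The ON and OFF48 libraries did not overlap for Chil3, whose end is shared with Chil4. Ngp, a cathelicidin-like granule protein, had a mean of 711 CPM in ON and 3072 CPM in OFF48 (2.11, SE 0.22). Lcn2, which sequesters bacterial siderophores, rose by 1.60, the whey acidic protein Wfdc21 by 1.81, the collagenase Mmp8 by 1.44, the gelatinase Mmp9 by 2.29, the olfactomedin Olfm4 by 2.43 and the formyl peptide receptor Fpr2 by 3.56. At 24 h, Ngp, Lcn2 and Mmp9 were not called against the same ON libraries, with log2 fold changes of -0.09, -0.21 and -0.09. Against OFF24, 26 of the 31 genes were higher at 48 h and 1 was lower, where 9.99% of all tested genes were higher and 11.2% lower.

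The 4 genes that fell were all stefins or stefin-like cysteine protease inhibitors. Stfa2 went from 384, 356 and 319 CPM in ON to 67.4, 75.7 and 83.4 CPM in OFF48 (-2.22, SE 0.12, adjusted p = 4.37e-11), Stfa3 fell by 2.00, Stfa2l1 by 1.32 and BC100530 by 0.39. Stfa1 was not called (0.13, adjusted p = 0.285). Several of these genes share near-identical ends, so that the split of reads between them is uncertain.

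**Figure D3:**
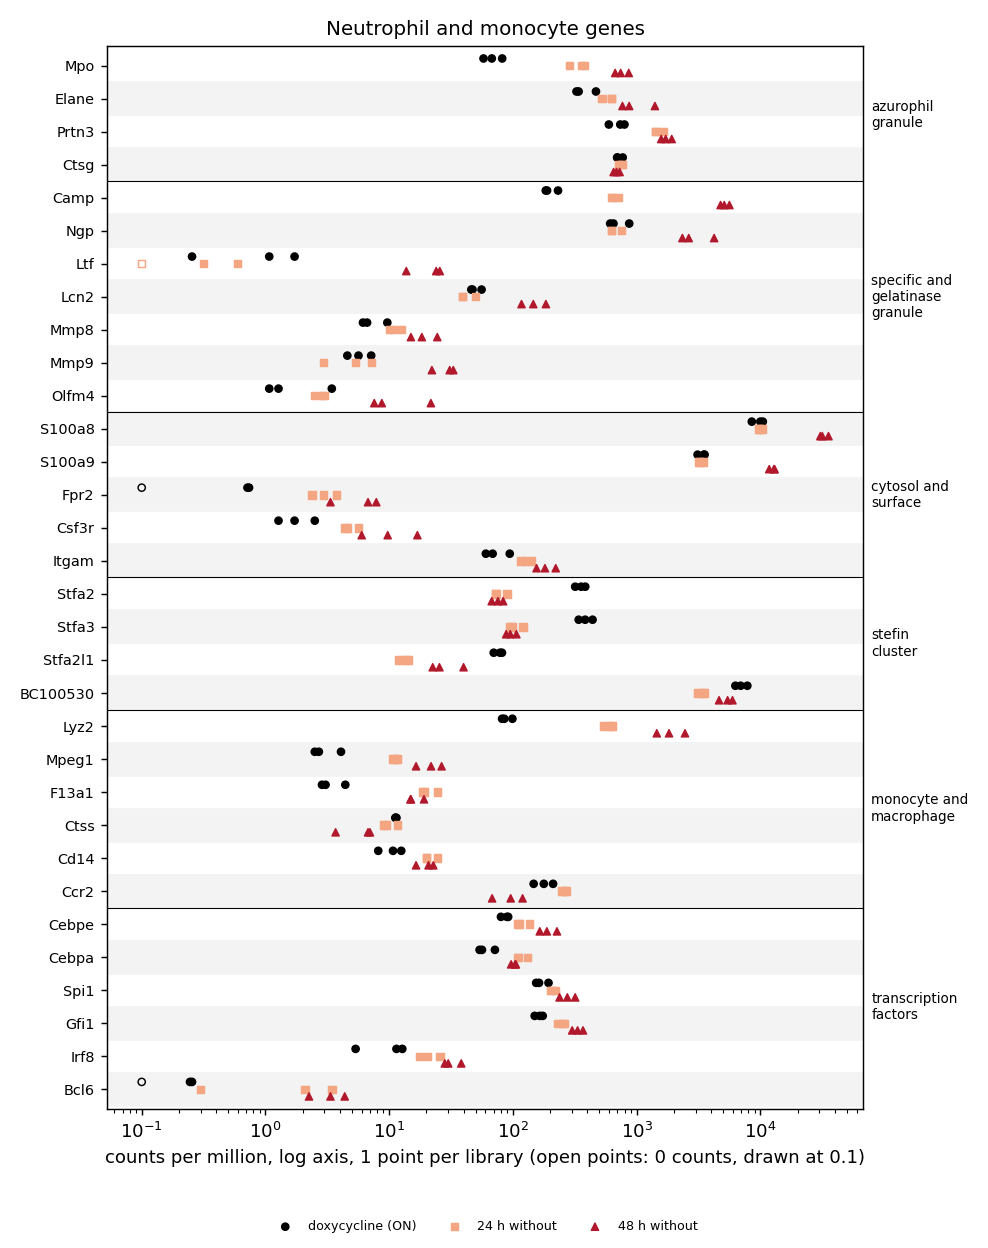
Neutrophil and monocyte genes in CPM on a log axis, with 1 point per library for ON, OFF24 and OFF48. Mpo and Lyz2 rise already at 24 h, whereas Ngp, Lcn2, S100a8 and S100a9 rise at 48 h, and Ctsg is flat throughout.

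The respiratory burst is made by a membrane oxidase and its cytosolic partners. All 8 tested genes of this complex rose. Cybb, the catalytic subunit, went from 6.89, 9.58 and 7.51 CPM in ON to 49.0, 72.7 and 77.8 CPM in OFF48 (log2 fold change 3.03, SE 0.21, adjusted p = 9.07e-10). The proton channel Hvcn1, which balances the charge that the oxidase moves, went from 0.510, 1.23 and 1.43 CPM to 15.8, 12.7 and 19.5 CPM (3.97, SE 0.34, adjusted p = 2.19e-08). Its ON values lie near the level of 3 counts, and the groups did not overlap. The partner subunit Cyba (0.63), the cytosolic subunits Ncf4 (1.12) and Ncf1 (0.81) and the GTPases Rac2 (0.82) and Rac1 (0.38) rose less.

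Of 37 monocyte and macrophage genes, 20 were tested, and of these 16 were higher and 3 lower (median 1.27). The others, among them Cx3cr1, Mrc1 and Trem2, did not pass the filter on low counts. A member near 0 in ON passes that filter only if it is higher in another group, so that the filter itself favours rises among such genes. Ly6c2, a surface marker of inflammatory monocytes and immature neutrophils, rose from 1187, 1202 and 1155 CPM to 2915, 3169 and 3545 CPM (1.44, SE 0.10), Ms4a6c by 3.01, Mpeg1, a pore-forming protein of macrophages, by 2.82, the transglutaminase F13a1 by 2.22, the adaptor Tyrobp by 1.10 and the endotoxin co-receptor Cd14 by 0.98. The 3 that fell were Lgals3, galectin 3 (-1.88), the protease Ctss (-0.99) and the monocyte chemokine receptor Ccr2 (-0.93). Of the same 20 tested genes, 17 were higher and none lower at 24 h against the same ON libraries, where 17.8% and 17.4% of all genes were. Ccr2 was higher than ON at 24 h (0.54) and lower at 48 h. Only 5 dendritic cell genes were tested: Clec10a (-1.75) and Bst2 (-2.07) fell, Tcf4 rose (0.45), and Irf7 and Irf4 were not called.

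Cell-surface receptors moved in both directions. Of 37 cytokine and growth factor receptors, 25 passed the filter and were tested, and of these 14 were higher and 3 lower (median 0.63). As for the monocyte genes, the filter favours rises among members near 0 in ON. Il6ra, the interleukin 6 receptor, went from 5.10, 5.65 and 5.37 CPM in ON to 36.2, 53.2 and 37.9 CPM in OFF48 (2.92, SE 0.20, adjusted p = 1.21e-09). Csf3r, the G-CSF receptor, went from 1.28, 1.72 and 2.50 CPM to 9.73, 6.0 and 16.9 CPM (2.71, SE 0.39, adjusted p = 1.10e-05). These values are low and its end is shared with 132 genes, so that they cannot be read as its level. Csf1r, the M-CSF receptor, rose by 1.65 and Igf1r by 1.24. Csf2rb, the shared chain of the GM-CSF and interleukin 3 receptors, and Il3ra were not called (0.11 and -0.07). Il1r2, the interleukin 1 decoy receptor, was at 6.63, 5.40 and 7.51 CPM in ON and had a single count over the 3 OFF48 libraries.

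Of 23 tested lectin-like and immunoglobulin-like receptors, 14 were higher and 4 lower (median 0.73). Clec4a2, an inhibitory lectin, went from 20.7, 31.2 and 31.8 CPM to 240, 290 and 255 CPM (3.23, SE 0.15, adjusted p = 2.96e-12), and Clec12a rose by 1.80. The end of Clec4a2 is shared with Clec4a4 and Clec4b1, so that the split of reads between them is uncertain. Clec4d, an activating lectin, went the other way, from 19.6, 17.2 and 15.7 CPM to 2.68, 3.00 and 1.46 CPM (-2.98, SE 0.30), and Lilrb4a fell by 3.53. Of 24 chemokine and chemoattractant genes, 11 passed the filter and were tested, and 7 of these were higher. The filter favours rises in this list too. P2ry6, which rose, had a mean of 2.14 CPM in ON and 9.72 CPM in OFF48. Among the 7 were the anaphylatoxin receptor C5ar1 (2.24), the homing receptor Cxcr4 (1.46) and the platelet-activating factor receptor Ptafr (1.71). The 3 that fell were chemokines: Ccl6 went from 83.4, 71.2 and 78.0 CPM to 5.70, 6.75 and 8.46 CPM (-3.44, SE 0.19), Ccl4 fell by 1.99 and Ccl9 by 0.80. Of 27 integrins, selectins and adhesion genes, 14 were higher and 3 lower. Itgal, the LFA-1 chain, rose by 1.55, Itgam, the Mac-1 chain, by 1.30 and Itga4 by 1.29. Itgb7, the partner of Itga4 in the gut-homing integrin, fell by 2.87. Of 29 genes for pattern recognition and the inflammasome, 17 were higher and 2 lower; Irak3, a brake on Toll-like receptor signals, rose by 1.30 and the adaptor Pycard fell by 0.84.

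Among 41 tested myeloid transcription factors, 17 were higher (41.5%) and 8 lower (19.5%), against 23.4% and 23.9% of all tested genes. Cebpa, which starts granulocyte development, went from 53.8, 56.2 and 71.6 CPM in ON to 104, 106 and 96.8 CPM in OFF48 (0.76, SE 0.13, adjusted p = 6.63e-05). Cebpe, which drives specific granule genes, went from 80.1, 89.4 and 91.6 CPM to 188, 165 and 227 CPM (1.17, SE 0.13, adjusted p = 3.41e-07). Spi1 (PU.1) rose by 0.69, the repressor Gfi1 by 1.04, Cebpd by 0.88, Runx1 by 1.35, Irf8, which favours monocytes, by 1.67, Jun by 1.77 and Id2 by 1.52. Klf2, a quiescence factor, fell from 182, 173 and 128 CPM to 47.6, 53.2 and 49.6 CPM (-1.70, SE 0.13), and Vdr, the vitamin D receptor, fell by 2.26. Bcl6 was at 0 or 1 count in each ON library and at 3.36, 2.25 and 4.37 CPM in OFF48, and it was called.

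MLL-AF9 keeps HOXA genes and MEIS1 active. Of 24 HOXA, MEIS1 and self-renewal genes, 10 were higher (41.7%) and 4 lower (16.7%), against 23.4% and 23.9% of all tested genes. The list median was 0.32. Without ON replicate 1 the counts of higher and lower genes were 6 and 2, and without OFF48 replicate 3 the lower count was 2. Hoxa9 was at 825, 863 and 838 CPM in ON and 880, 935 and 839 CPM in OFF48 (0.07, SE 0.09, adjusted p = 0.558). Its cofactor Meis1 rose by 0.58, Hoxa5 by 1.28, Lmo2 by 0.81 and Myb from 365, 330 and 350 CPM to 777, 736 and 894 CPM (1.21, SE 0.10, adjusted p = 1.11e-08). Hoxa11 (-1.47) and the stem cell factor Gata2 (-1.76) fell.

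Glycolysis splits glucose into pyruvate, and lactate dehydrogenase and pyruvate dehydrogenase kinase steer that pyruvate away from mitochondria. Many of these genes are targets of hypoxia-inducible factor 1, which binds the core ACGTG in their promoters. Promoter sequences (RefSeq, GRCm38.p6, from 250 bases before to 50 after the first listed start of each gene) were searched on both strands for that core, shown in capitals. The 3 members of the glycolysis list that hold it and had the smallest p-values are printed because they show the element at the listed RefSeq start of genes that fell. The windows are chr7:46845554-46845853 on the + strand for Ldha, chr11:78322823-78323122 on the + strand for Aldoc and chrX:106186850-106187149 on the + strand for Pgk1. The Ldha window lies inside the GENCODE M21 span of that gene (chr7:46841475-46855627) and not at its first base.
Ldha: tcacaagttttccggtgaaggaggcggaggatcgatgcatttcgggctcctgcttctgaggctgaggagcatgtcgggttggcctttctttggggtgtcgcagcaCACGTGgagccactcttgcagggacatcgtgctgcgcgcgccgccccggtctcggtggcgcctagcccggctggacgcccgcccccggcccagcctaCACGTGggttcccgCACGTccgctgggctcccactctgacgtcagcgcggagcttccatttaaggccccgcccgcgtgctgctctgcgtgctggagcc
Aldoc: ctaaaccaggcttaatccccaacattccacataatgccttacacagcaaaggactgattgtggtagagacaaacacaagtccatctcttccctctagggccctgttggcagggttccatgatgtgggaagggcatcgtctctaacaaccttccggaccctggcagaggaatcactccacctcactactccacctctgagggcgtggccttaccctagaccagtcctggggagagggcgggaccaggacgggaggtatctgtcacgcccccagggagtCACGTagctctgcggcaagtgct
Pgk1: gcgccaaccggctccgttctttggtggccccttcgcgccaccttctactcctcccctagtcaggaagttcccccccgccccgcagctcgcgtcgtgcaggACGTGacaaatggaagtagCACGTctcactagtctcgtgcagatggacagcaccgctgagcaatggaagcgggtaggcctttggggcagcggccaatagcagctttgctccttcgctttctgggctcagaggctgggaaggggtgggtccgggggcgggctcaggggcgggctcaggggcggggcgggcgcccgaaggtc

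The Ldha window holds 5 matches when both strands are counted, since CACGTG reads the same on each strand, the Pgk1 window 2 and the Aldoc window 1. The core is in 13 of 25 glycolysis promoters (52.0%), in 27.2% of the 8018 tested genes with a promoter and in 19.7% of all 27025 promoters. Of the 13 genes with a match, 11 were lower at 48 h, and of the 12 without, 8 were. A match is a description of the letters and not of binding.

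At 48 h, 19 of 26 tested glycolysis genes were lower and 5 higher, with a median of -1.07; the counts ran from 17 to 19 and from 4 to 5 with each library left out. For uptake, Slc2a1 (GLUT1) went from 51.0, 26.3 and 31.1 CPM in ON to 10.7, 5.25 and 10.8 CPM in OFF48 (-1.90, SE 0.27, adjusted p = 3.03e-05), while Slc2a3 (GLUT3) rose by 0.93. Of the hexokinases, Hk2 fell by 0.70, Hk3 rose by 0.61 and Hk1 was not called (-0.14, adjusted p = 0.327). All 3 phosphofructokinase genes fell: Pfkp went from 143, 156 and 118 CPM to 27.9, 50.2 and 35.0 CPM (-1.96, SE 0.16), and the log2 fold changes of Pfkl and Pfkm were -1.66 and -1.84. Of the enzymes that make or remove their activator fructose 2,6-bisphosphate, Pfkfb4 went from 24.5, 20.4 and 26.8 CPM to 63.7, 60.0 and 67.4 CPM (1.44, SE 0.14, adjusted p = 1.12e-07) and Pfkfb3 rose by 0.56. Gpi1, glucose phosphate isomerase, was higher (0.28, SE 0.10, adjusted p = 0.0255), but the call was lost without ON replicate 1 (adjusted p = 0.114), without ON replicate 3 (adjusted p = 0.0987) or without OFF48 replicate 2 (adjusted p = 0.0721).

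From aldolase to lactate, most genes fell. Aldoc went from 199, 242 and 173 CPM to 37.6, 35.2 and 49.3 CPM (-2.30, SE 0.15, adjusted p = 3.21e-10), Aldoa fell by 0.82 and Tpi1 by 1.48. Pgk1 went from 1077, 947 and 914 CPM to 259, 342 and 370 CPM (-1.60, SE 0.12, adjusted p = 2.75e-09), Pgam1 fell by 0.89, Eno1 by 1.56 and Pkm by 0.90, and Eno3 was not called (0.04). Ldha (chr7:46841475-46855627), lactate dehydrogenase A, went from 1352, 1197 and 1114 CPM to 308, 269 and 321 CPM (-2.02, SE 0.10, adjusted p = 1.93e-11). The lactate exporters Slc16a1 and Slc16a3 fell by 2.42 and 1.95, and the kinase Pdk1 by 2.05. In each of these called genes the ON libraries lay above the OFF48 libraries. Tpi1, Pgam1, Eno1, Pkm, Aldoa and Ldha share transcript ends with pseudogenes, and Gapdh (-1.24) with 143 genes, so that its mean of 37.6 CPM in ON cannot be read as its level.

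At 24 h, part of the list stood on the other side of the same ON libraries: 13 of 26 were higher and 3 lower, with a median of 0.33. Over all tested genes, 17.8% were higher and 17.4% lower at 24 h. Ldha was not called at 24 h (0.09, adjusted p = 0.487). Pgk1 was at 1670, 1609 and 1539 CPM at 24 h, above every ON library, before its OFF48 level of a mean of 324 CPM. Of the 26 genes, 8 were called higher than ON at 24 h, lower than ON at 48 h and different between the times: Slc2a1, Aldoa, Aldoc, Tpi1, Pgk1, Eno1, Pkm and Pdk1. Over all tested genes, 71 turned in either direction (0.695%), 62 from higher to lower and 9 from lower to higher. Without ON replicate 3 the number was 47, and with the replicate number as a block it was 127.

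Some hypoxia-response genes that are not glycolytic also turned, and others were lower at both times. Of 33 tested HIF factors and targets, which include Slc2a1, Pdk1 and other genes above, 18 were lower and 6 higher (median -0.59). At 24 h 17 were higher and 7 lower, and 10 turned. Egln3, the oxygen sensor that HIF itself induces, was at 76.8, 51.8 and 42.6 CPM in ON, at 140, 140 and 138 CPM at 24 h and at 10.4, 10.5 and 10.5 CPM at 48 h (-2.46 against ON, SE 0.21, adjusted p = 2.65e-08). Bnip3, which targets mitochondria for autophagy, was at 149, 132 and 79.4 CPM in ON, 260, 286 and 268 CPM at 24 h and 31.2, 26.2 and 25.7 CPM at 48 h (-2.12, SE 0.20). The collagen prolyl hydroxylase P4ha1 (-1.66), the ankyrin repeat gene Ankrd37 (-2.71), Ndrg1 (-1.0) and Egln1 (-0.59) fell at 48 h and were higher at 24 h (0.74, 1.13, 0.76 and 0.52). Ak4 was at 58.7, 34.6 and 42.6 CPM in ON, 87.0, 70.6 and 73.9 CPM at 24 h and 1.01, 1.5 and 1.46 CPM at 48 h (-5.09, SE 0.32, adjusted p = 2.99e-10). Hif1a itself fell at both times, by 0.53 at 24 h and by 0.54 at 48 h. Mif, a cytokine-like tautomerase, went from 1204, 1461 and 999 CPM to 90.2, 148 and 109 CPM at 48 h (-3.43, SE 0.17, adjusted p = 4.54e-10), Stc2 fell by 3.75, Higd1a by 1.85 and Fam162a by 2.27. These 4 genes were already lower than ON at 24 h, with log2 fold changes of -0.48 for Mif, -0.69 for Stc2, -0.47 for Higd1a and -0.34 for Fam162a. Bnip3l, a relative of Bnip3, was higher at both times (0.90 at 24 h and 0.75 at 48 h).

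**Figure D4:**
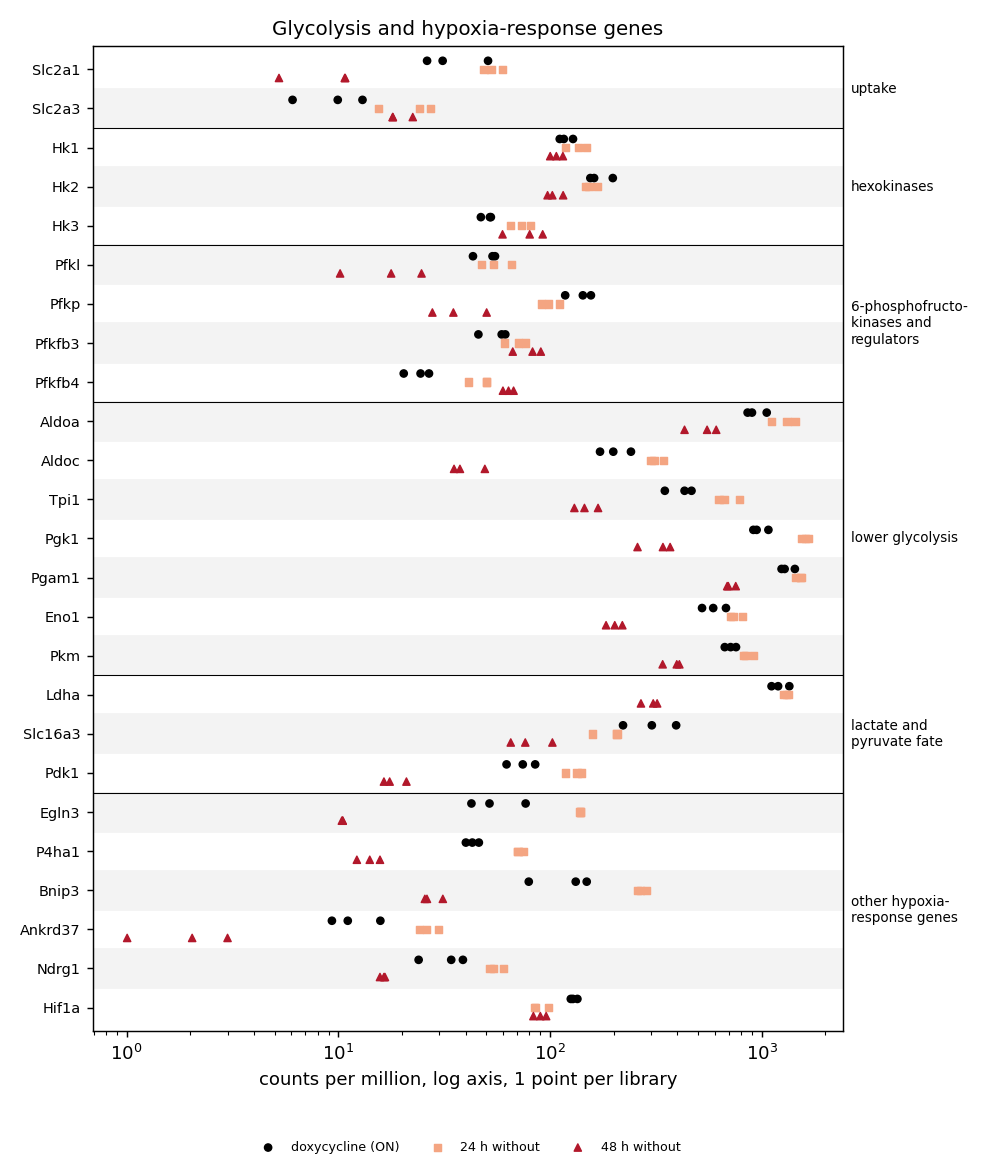
Glycolysis and hypoxia-response genes in CPM on a log axis, with 1 point per library for ON, OFF24 and OFF48, ordered by step. For Pgk1, Tpi1, Aldoc, Pdk1, Egln3 and Bnip3 the OFF24 points lie to the right of ON and the OFF48 points to the left, whereas Pfkfb4 rises at both times.

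The pentose phosphate pathway, which makes NADPH and ribose from glucose, went the other way. Of 8 tested genes, 5 were higher and none lower (median 0.58). Taldo1, transaldolase, went from 739, 715 and 722 CPM to 1210, 1122 and 1228 CPM (0.71, SE 0.09, adjusted p = 2.90e-06). H6pd rose by 1.16, Rpia by 0.97, Pgls by 0.70 and G6pdx, the rate-limiting dehydrogenase, by 0.46. Tkt, Pgd and Rpe were not called. Pgd was called with the replicate number as a block (0.24, adjusted p = 0.0299) and without OFF48 replicate 2 (0.33, adjusted p = 0.0151).

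Mitochondrial genes were lower in several groups. Of 29 tricarboxylic acid cycle genes, 14 were lower and none higher (median -0.34), with Idh3a at -1.76, the citrate carrier Slc25a1 at -1.71 and Suclg2 at -1.44. The list also holds Me1, a malic enzyme of the cytosol, at -1.33. Of 72 nuclear subunits of oxidative phosphorylation, 33 were lower and 2 higher (4 without OFF48 replicate 2; median -0.25), and cytochrome c, Cycs, fell from 266, 301 and 254 CPM to 126, 119 and 111 CPM (-1.21, SE 0.11). Of 76 mitochondrial ribosomal proteins, 48 were lower and none higher (median -0.62). Of 35 genes for mitochondrial import, chaperones and proteases, 31 were lower and none higher (median -0.78), among them the outer-membrane receptor Tomm20 (-1.29) and the matrix chaperones Hspa9 (-1.61), Hspd1 (-2.05) and Hspe1 (-1.60).

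Of the 13 genes that the mitochondrial genome encodes, 10 were lower and none higher (median -0.82), but not evenly. ND6 was at 66.1, 56.7 and 60.8 CPM in ON and 4.03, 1.5 and 4.67 CPM in OFF48 (-3.98, SE 0.21, adjusted p = 1.93e-11). It is encoded on the opposite strand to the others, and the strand setting of the counting is not given in the sources used here. COX1, in contrast, was at 4163, 3946 and 4252 CPM in ON and 4106, 3647 and 4244 CPM in OFF48 (-0.04, SE 0.09, adjusted p = 0.735), and COX3 (-0.14) was not called either. ND4 was not called (-0.35, adjusted p = 0.294), and without OFF48 replicate 2 it was lower (-0.69, adjusted p = 0.00248).

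Most genes of cholesterol synthesis were lower. Of 25 cholesterol synthesis genes, 21 were lower and 1 higher (median -1.05). Lss, which closes the sterol ring, went from 32.1, 28.5 and 34.7 CPM to 6.37, 6.0 and 8.75 CPM (-2.11, SE 0.20), Cyp51 fell by 1.51, Sqle by 1.46, and Acat2 by 1.31. The 1 that rose was Scap, the escort protein of the sterol-sensing transcription factor (0.68). The sterol response element core CACCCCAC was in 2 of 18 cholesterol gene promoters (11.1%) and in 2.8% of all. Of 22 fatty acid genes, 12 were lower and 7 higher (median -0.55). Scd2, a desaturase, went from 535, 477 and 418 CPM to 56.0, 62.2 and 49.3 CPM (-3.12, SE 0.12, adjusted p = 5.71e-13), Scd1 had a single count over the 3 OFF48 libraries against 17.1, 15.7 and 18.2 CPM in ON, the elongase Elovl6 fell by 3.92 and Fasn by 1.07. Dgat2, which makes triglyceride for storage, rose from 27.3, 29.7 and 28.3 CPM to 81.5, 97.5 and 84.3 CPM (1.61, SE 0.12), and the acyl-CoA synthetase Acsl1 rose by 1.17.

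Lysosomal genes rose in part. Of 48 tested, 24 were higher and 5 lower (median 0.41), and the 5 became 3 without ON replicate 3. The sulfatase Arsb rose by 2.91, Man2b1 by 1.78, progranulin Grn by 1.20, cathepsin H Ctsh by 1.79, cathepsin B Ctsb by 0.79 and Lamp1, of the lysosomal membrane, by 0.71. Cathepsin L, Ctsl, fell by 0.63 and the carboxypeptidase Scpep1 by 1.54. The E-box CACGTG, also the core of the motif of the lysosomal factor TFEB, was in 10 of 39 lysosomal promoters (25.6%), against 10.8% of tested genes with a promoter. Of 34 autophagy genes, 12 were higher and 1 lower (2 without OFF48 replicate 2); Map1lc3a rose by 1.48 and Gabarapl1 was the 1 that fell (-1.81).

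Genes that carry or brake growth signals also moved. Of 16 SOCS, DUSP, SPRY and SPRED feedback genes, 8 were lower and 2 higher (median -0.64). Spred1, an inhibitor of RAS, went from 34.4, 26.0 and 27.9 CPM to 2.35, 0 and 1.75 CPM (-4.11, SE 0.36), while the phosphatases Dusp1 (0.86) and Dusp2 (1.21) rose. The kinase Pim1 (chr17:29490753-29496112) went from 462, 364 and 390 CPM to 42.6, 53.2 and 54.5 CPM (-3.02, SE 0.13, adjusted p = 1.48e-12). Myc fell by 1.79, and of its antagonists Mxd4 rose by 1.68, Mxi1 by 0.97 and Mxd1 by 0.81.

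The proliferation marker Mki67 was at 243, 231 and 248 CPM in ON and 242, 260 and 212 CPM in OFF48 (-0.02, SE 0.10, adjusted p = 0.890). Of 43 S phase genes, 10 were higher (23.3%, against 23.4% of all tested genes) and 3 lower (6.98%, against 23.9%). Without ON replicate 2 the counts were 5 and 5, and without OFF48 replicate 1 they were 6 and 5. Tyms (0.76) and Mcm5 (0.61) rose, Rrm2 fell (-0.81), and Pcna was not called (0.20). The end of Mcm5 is shared with 18 genes, so that its level is uncertain. Of 43 G2 and M phase genes, 16 were lower and 1 higher (median -0.24), and 10 were lower without ON replicate 1. None was higher without ON replicate 1, without ON replicate 3 or without OFF48 replicate 2, and 2 were without OFF48 replicate 3. Ccnb1, cyclin B1, went from 152, 155 and 136 CPM to 80.2, 75.0 and 78.1 CPM (-0.92, SE 0.11), Aurka fell by 0.70 and Top2a was not called (-0.13). Of 22 genes of the G1 phase, 8 were higher (36.4%) and 8 lower (36.4%). Without OFF48 replicate 2 or without OFF48 replicate 3, 5 were lower. Ccnd2, cyclin D2, went from 31.9, 34.4 and 24.0 CPM to 2.68, 2.25 and 2.92 CPM (-3.47, SE 0.26, adjusted p = 3.43e-09), and the inhibitor Cdkn1a (p21) from 165, 174 and 130 CPM to 31.2, 47.2 and 33.5 CPM (-2.13, SE 0.17). Cdkn2c (1.77) and Cdk6 (0.54) rose, and Cdk4 fell (-0.66).

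Of 27 genes of the BCL2 family and apoptosis, 9 were higher (33.3%) and 10 lower (37%), against 23.4% and 23.9% of all tested genes. Without OFF48 replicate 1, 6 were higher. Bcl2 went from 14.5, 11.1 and 17.5 CPM to 1.34, 0.750 and 2.92 CPM (-2.86, SE 0.36, adjusted p = 3.01e-06), and the killer Bcl2l11 (BIM) from 9.69, 12.3 and 14 CPM to 25.2, 21.0 and 30.3 CPM (1.15, SE 0.21, adjusted p = 1.79e-04). The groups did not overlap for either gene. The survival genes Mcl1 (0.19, adjusted p = 0.191) and Bcl2l1 (0.21, adjusted p = 0.275) were not called. Of 19 p53 targets, 11 were lower and 2 higher (median -0.48), and 1 was higher without OFF48 replicate 3. Of 20 interferon-induced genes, 8 were lower and 1 higher (2 without OFF48 replicate 2; median -0.28). Ifitm1 went from 308, 310 and 277 CPM to 59.0, 63.0 and 57.4 CPM (-2.33, SE 0.11, adjusted p = 3.76e-12), and Ifitm3 fell by 2.96. The class I gene H2-K1 fell by 1.03, and its end is near-identical to those of other class I genes.

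Nucleolar genes had the lowest median of the 56 lists examined. Of 65 tested ribosome biogenesis factors, 61 were lower and none higher (median -1.32). The MYC-binding E-box CACGTG was in 14 of 59 of their promoters (23.7%), against 10.8% of tested genes with a promoter. Wdr43, of the small-subunit processome, and Mybbp1a are printed as the members with that motif and the smallest p-values, with the motif in capitals. Their windows are chr17:71615965-71616264 and chr11:72441077-72441376, both on the + strand.
Wdr43: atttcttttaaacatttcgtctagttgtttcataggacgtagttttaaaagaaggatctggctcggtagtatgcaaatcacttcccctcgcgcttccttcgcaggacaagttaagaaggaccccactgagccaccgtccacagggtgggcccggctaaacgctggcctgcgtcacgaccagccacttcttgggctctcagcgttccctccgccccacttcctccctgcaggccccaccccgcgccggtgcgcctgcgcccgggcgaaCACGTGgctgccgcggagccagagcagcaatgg
Mybbp1a: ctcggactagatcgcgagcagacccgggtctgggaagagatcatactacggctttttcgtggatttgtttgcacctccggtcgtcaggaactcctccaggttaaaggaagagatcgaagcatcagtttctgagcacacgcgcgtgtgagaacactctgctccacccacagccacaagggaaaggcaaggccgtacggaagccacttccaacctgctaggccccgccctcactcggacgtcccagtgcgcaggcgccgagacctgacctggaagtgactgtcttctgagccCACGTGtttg

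Wdr43 went from 170, 161 and 148 CPM to 50.3, 54.7 and 41.7 CPM (-1.73, SE 0.13) and Mybbp1a from 103, 114 and 106 CPM to 37.6, 34.5 and 28.9 CPM (-1.69, SE 0.13). Among the 14 with the motif 11 were lower, and among the 45 without it 44 were. Of genes for protein quality control, 30 of 37 proteasome subunits were lower and none higher (median -0.68), and 24 of 32 cytosolic chaperones were lower and 1 higher (median -0.79). Without ON replicate 1, 1 proteasome gene and no chaperone was higher, and without ON replicate 3, 2 chaperones were. Hsp90ab1 went from 4404, 4459 and 4648 CPM to 1488, 1489 and 1238 CPM (-1.68, SE 0.10, adjusted p = 1.13e-10), and the chaperonin subunits Tcp1 and Cct8 fell by 1.42 and 1.37. Of 45 nuclear pore and karyopherin genes, 29 were lower and none higher (1 higher without OFF48 replicate 2; median -0.53).

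**Figure D5:**
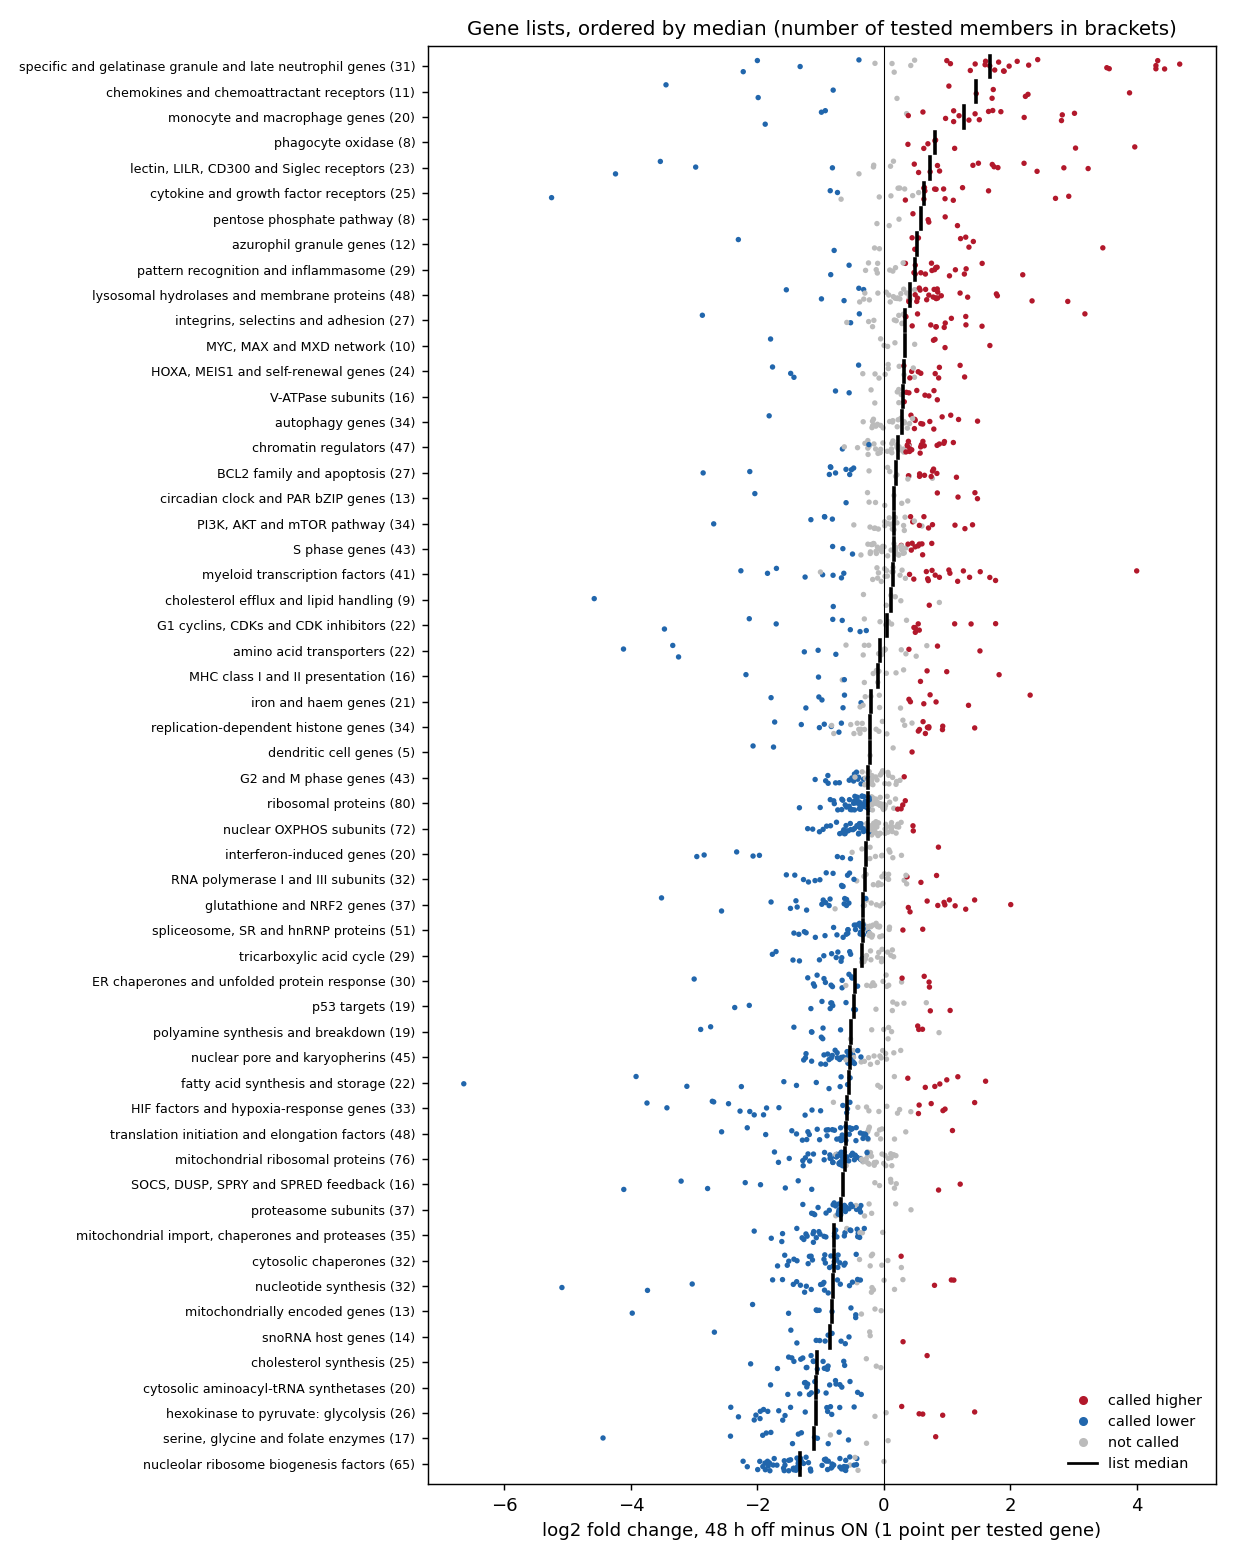
Log2 fold changes, OFF48 minus ON, of the tested members of 56 gene lists, with 1 point per gene and a bar at each list's median. Genes of specific granules, chemoattractants, monocytes and the oxidase lie at the top, with medians of 1.67, 1.46, 1.27 and 0.81, and nucleolar, serine and glycolysis genes at the bottom, with -1.32, -1.10 and -1.07.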

How the data were processed

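RNA of 3 ON, 3 OFF24 and 3 OFF48 libraries was measured as 3' ends (Lexogen QuantSeq, per the labels' protocols). Per the submitters' processing notes, the build was mm10 and the tools were HISAT2 2.0.4, cutadapt 1.5, featureCounts of Subread 1.5.0-p3, limma 3.42.2 in R 3.6.1, FastQC 0.11.2 and bcl2fastq 2.17.1.14. Not given in the sources used here are the annotation, the strand setting and the handling of reads with several matches.

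The authors deposited whole-number counts per gene, which the tests used. The authors also deposited a table of log2 expression values, used only for an alternative.

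Counts were scaled by TMM in edgeR 4.0.16 (R 4.3.3) and filtered with filterByExpr. All 9 libraries entered 1 quasi-likelihood fit, without a replicate block, so that the groups share an estimate of the spread. CPM are counts scaled by the effective library size. DESeq2 1.42.0 and limma 3.58.1 were alternatives. The script was tested on simulated data. A gene turned where OFF24 against ON and OFF48 against ON were called in opposite directions and OFF48 against OFF24 was called.

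Members and gene lists were chosen with earlier results of these data known. Genes named are the largest rises and falls, the greatest gains and losses of CPM, genes at 0 counts in OFF48, and the list members with the smallest p. A further 84 genes were chosen after their values were seen. Some genes are not reported here. Gene positions and shared 3' ends (at least 95% identity over at least 100 of the last 400 bases) are from GENCODE M21; 145 of 399 genes checked share an end. OFF48 and OFF24 were both compared with the same ON libraries. Same-numbered ON and OFF48 libraries had correlated deviations from their group means (r = 0.115, 0.406 and 0.198 for replicates 1, 2 and 3). Differently numbered pairs reached similar values for replicates 1 and 3 (ON replicate 1 with OFF48 replicate 3 0.124, ON replicate 3 with OFF48 replicate 1 0.19), so that replicate 2 alone stood out. The labels do not say what a number marks, and the block was kept as an alternative. Intervals other than standard errors were not computed, and the depth limits what low counts can show.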

Additional observations from a re-analysis of the deposited data

Results flagged for a closer look

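The difference between the effects at 48 h and at 24 h, both against the same ON libraries, was tested as OFF48 against OFF24 with edgeR's quasi-likelihood test and Benjamini-Hochberg adjustment. Among genes that turned, the following stood out by size. Agpat2, an acyltransferase of glycerolipid synthesis, was at 33.4, 29.2 and 26.1 CPM in ON, 16.3, 21.3 and 26.2 CPM at 24 h and 61.1, 71.2 and 61.5 CPM at 48 h, and its log2 difference between the times was 1.56. Adpgk, an ADP-dependent glucokinase, differed by 1.35, the kinase Mark2 by 1.02 and the lysosomal tetraspanin Cd63 by 0.90, all lower than ON at 24 h and higher at 48 h. The Mark2 call at 48 h was lost without ON replicate 1 (adjusted p = 0.108), without ON replicate 3 (adjusted p = 0.0781) and without OFF48 replicate 2 (adjusted p = 0.0959).

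In the other direction, Ak4 differed by -5.85 and the mitochondrial gene ND6 by -4.93. ND6 was at 117, 111 and 128 CPM at 24 h, above every ON library. S100a4, a calcium-binding protein, was at 29.8, 33.7 and 25.1 CPM in ON, 33.5, 38.9 and 45.6 CPM at 24 h and 2.35, 3.00 and 1.46 CPM at 48 h, a difference of -4.23 between the times. Its transcript overlaps another gene model. Itgb7 was at 14.3, 13.3 and 9.66 CPM in ON, 25.5, 32.6 and 24.1 CPM at 24 h and 1.34, 3.00 and 1.46 CPM at 48 h, a difference of -3.99.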

How the results depend on the processing

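Of 7141 values of 399 genes under 18 alternatives, 7089 kept their direction and side of the threshold, 35 lost the call, 17 gained one and none reversed. The replicate block, which uses the pairing by replicate number, gave 2587 genes higher and 2602 lower. It moved the number of genes that turned from 71 to 127 and brought calls to Pgd, Npc2, Snhg8 and Mlxip, and changed no other call of the genes followed. Thinning every library to the shallowest total gave 1816 higher, 1891 lower and 42 that turned. DESeq2 gave 2022 and 2142, and limma on the deposited log2 values gave 2321 and 2325. With each library left out, 2065 to 2418 were higher, 2115 to 2417 lower, 736 to 889 at least 2-fold higher, 893 to 961 at least 2-fold lower, and 47 to 71 turned. Of 2016 list counts, 87 moved by over 1.5 times. The cause of these changes was not tested. A single count in OFF48 replicate 2 weighs more than in any other library, so low genes are the least certain there. The alternative without both replicate 2 libraries was chosen after seeing the data.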

Other observations

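Of 32 tested nucleotide synthesis genes, 22 were lower and 3 higher (median -0.81). Of 19 genes of polyamine synthesis and breakdown, 9 were lower and 3 higher; Srm, spermidine synthase, fell by 2.90 and Mtap, which salvages its by-product, by 2.74. Of 37 glutathione and NRF2 genes, 19 were lower and 11 higher. Cth, which makes cysteine, fell by 3.52, Prdx1, a peroxidase, by 1.39 and Hmox1, which degrades haem, by 1.78, while the glutathione transferases Gstm1 and Mgst1 rose by 1.43 and 2.01. Slc40a1, the iron exporter, rose by 2.31.

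Of 47 tested chromatin regulators, 18 were higher and 2 lower (median 0.23), and 1 was lower without ON replicate 1, without ON replicate 2, without OFF48 replicate 1 or without OFF48 replicate 3. The histone demethylase Kdm7a rose by 1.10 and the methyltransferase Setd1b by 0.96.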
